A study of Mus musculus with 40 samples.

Results

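Endoplasmic reticulum (ER)-associated degradation, ERAD, was described here through 10 genes: Syvn1, Sel1l, Herpud1, Derl1, Derl2, Derl3, Os9, Edem1, Edem2 and Edem3. They were taken by name from the count table, by Ensembl identifiers that map to these symbols, and all 10 were among the 53465 genes listed and the 16921 tested. The study grew mouse bladder urothelial cells as organoids in a medium with EGF, Noggin and R-spondin, as wild type (WT) or labelled dKO, a double knockout of the genes Kmt2c and Kmt2d, whose products are histone H3K4 methyltransferases that act at enhancers. PolyA RNA was sequenced after 4 days in the solvent DMSO or in 1 µM MI-503, a small molecule that blocks the binding of menin to the methyltransferase KMT2A. This made 4 groups of 2 libraries: WT in DMSO, WT in MI-503, dKO in DMSO and dKO in MI-503. The other 32 of the 40 samples of the series were not analysed here. The sources used here do not give how the alleles were deleted, the age of the animals, or whether the 2 libraries of a group came from separate cultures or lines. P-values then measure only the spread between these libraries, which may be technical.

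ERAD removes proteins that fail to fold in the ER. Lectins and mannosidases of the ER lumen mark misfolded glycoproteins, a membrane complex around the ubiquitin ligase HRD1 (encoded by Syvn1) passes them to the cytosol and tags them with ubiquitin, and the ATPase p97 pulls them out for the proteasome. Many ERAD genes are known targets of the unfolded protein response, in which the transcription factors XBP1 and ATF6 act on elements in their promoters. Umbrella cells of the urothelium deliver large amounts of membrane protein, the uroplakins, through the ER.

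Library totals ran from 58113705 to 68571176 counts, and all levels are CPM, counts scaled to a common library total with TMM factors. Kmt2c, a gene named in the knockout label, measured 110 and 111 CPM in WT with DMSO, 60.3 and 61.7 in WT with MI-503, 55.3 and 52.3 in dKO with DMSO, and 26.6 and 29.8 in dKO with MI-503. Kmt2d measured 95.4 and 86.5, 75.8 and 65.7, 111 and 133, and 104 and 86.5 CPM in the same order, so its RNA was higher, not lower, in the libraries labelled dKO in DMSO (log2 fold change 0.43, adjusted p = 0.00166). Gene-level counts cannot show the loss of single exons, and dKO names the label throughout. Both WT DMSO libraries stood apart from the other 6: their TMM factors were 0.896 and 0.892 against 1.01 to 1.06. The ER chaperone gene Hspa5 averaged 14670 CPM there against 342 to 1484 in the other groups. Hspa5 was picked from these data as the 5th nearest in pattern to Derl3, which is high in WT DMSO alone. Il23a, Creld2, Hspa1b and Plagl1 ranked nearer and were also highest in WT DMSO. The excess of these genes there follows from that choice and is not separate evidence. The WT DMSO libraries are the reference of both the comparison of genotypes in DMSO and the comparison of treatments in WT, which therefore share them, and they enter the interaction. Only the comparison of treatments in dKO cells and that of the genotypes in MI-503 do not use their means. The filter, scaling and estimate of spread in those comparisons still draw on all libraries. Epithelial markers were present throughout: the 11 listed summed to 9127 and 9948 CPM in WT with DMSO and to 15520 to 20780 in the other libraries, with Krt5 the most abundant, Upk1b at 97.5 to 144 CPM, and the uroplakin genes Upk2 (at most 0.149 CPM) and Upk3a (at most 2.58 CPM) near 0. The 5 plasma cell markers summed to 799.6 and 882 CPM in WT with DMSO and to 1263 to 1803 elsewhere, nearly all from Sdc1, which epithelial cells also express. Of the other 4, Jchain, Mzb1 and Cd79a had at most 0.150, 0.179 and 0.0445 CPM in any library, and Pou2af1 at most 0.669 CPM, in WT with MI-503, where it was called higher than with DMSO (log2 fold change 3.18, adjusted p = 0.00028). Of the other lists, the 4 immune markers summed to 2.20 and 2.69 CPM in WT with DMSO, nearly all from Cd74, and to at most 0.182 elsewhere, with Lyz2 at 0 in all libraries. The 5 fibroblast markers summed to 0.977 and 1.24 CPM in WT with DMSO and to 1.30 and 1.54 in WT with MI-503. In dKO they summed to 3.53 and 4.15 CPM with DMSO and to 7.78 and 8.49 with MI-503. Most came from Pdgfra, and Col1a2 and Dcn were at 0 in all libraries. The 3 endothelial markers reached at most 0.114 CPM. The 4 smooth muscle markers summed to 40.3 and 42.7 CPM in WT with MI-503 and to between 1.22 and 7.63 in the other groups, mostly from Acta2. Several of these sums moved with group, and the part of other cells in the values below was not tested.

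Together the 10 genes took 2568 and 2618 CPM in WT with DMSO, 682 and 692 in WT with MI-503, 935 and 922 in dKO with DMSO, and 593 and 577 in dKO with MI-503. No group overlapped another in this sum. The plot of each gene by library shows that 9 of the 10 genes were highest in WT DMSO, Edem2 being highest in WT MI-503. The share of all genes that were highest in WT DMSO, or whose groups did not overlap, was not counted. In bulk RNA, fewer cells that express a gene and less RNA per cell cannot be told apart.

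**Figure D1:**
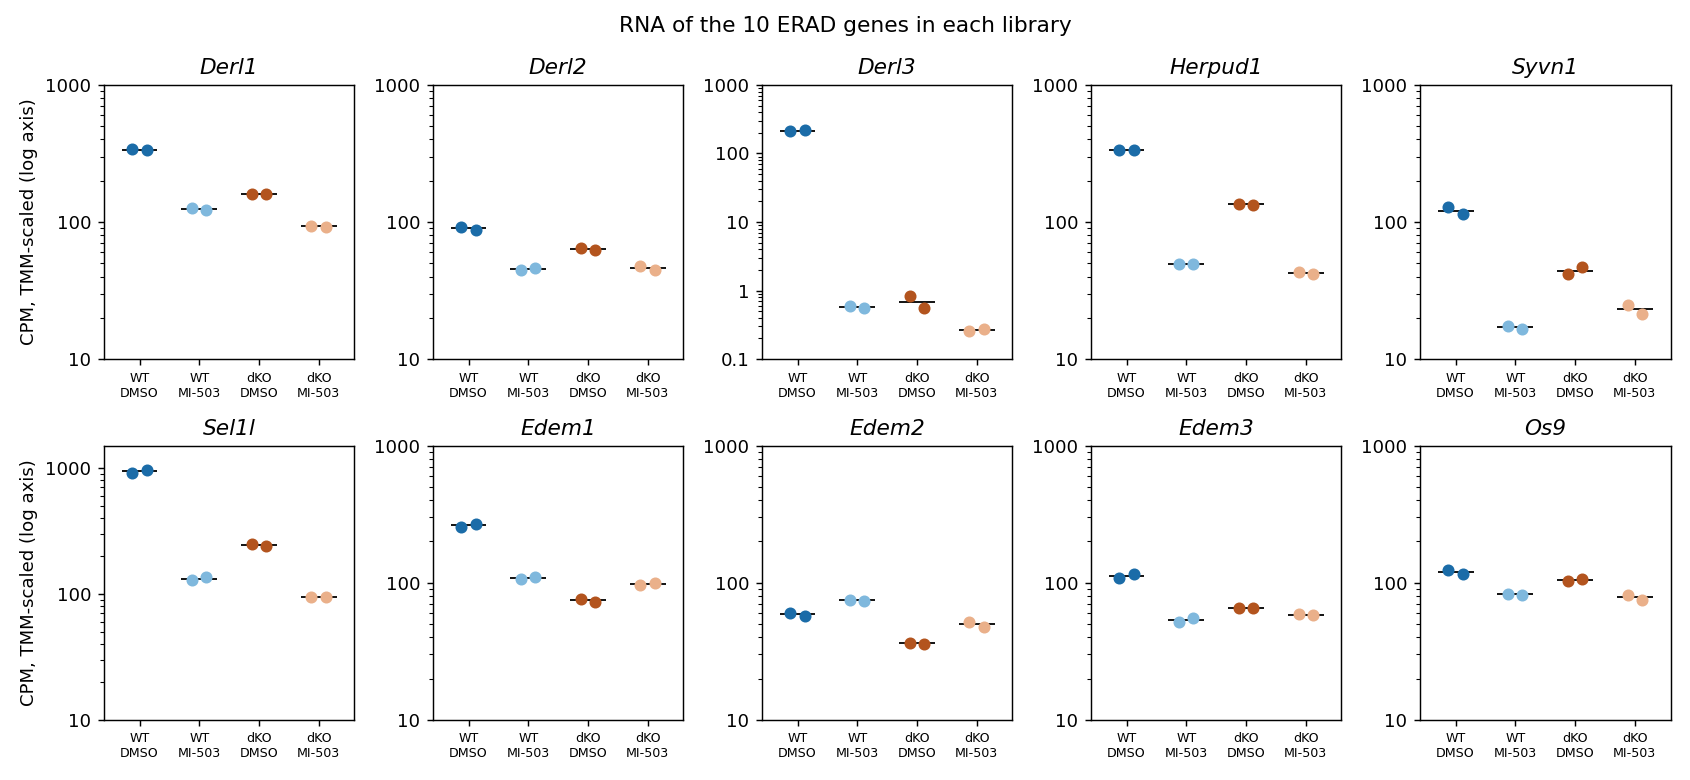
CPM (TMM-scaled, log axis) of the 10 ERAD genes in the 8 libraries, by genotype and treatment. Points are libraries and lines are means of 2; the axis of Derl3 spans more decades than the others, and its WT DMSO libraries (212 and 218 CPM) lie far above its other 6 (at most 0.819 CPM).

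In DMSO, all 10 genes fell in the cells labelled dKO against WT, by 1.15-fold for Os9 to 316-fold for Derl3 (edgeR's quasi-likelihood test, adjusted by Benjamini-Hochberg over all genes tested). Of all genes tested, 35.8% were called lower and 29.6% higher in this comparison. The members' median log2 fold change was -1.19, against -0.052 over all genes. With library size only as scaling, 61.7% of the calls over all genes were higher, against 45.3% with TMM, and the median of all genes moved up by 0.227, which left 9 members lower and Os9 with a log2 fold change of 0.031 (adjusted p = 0.635).

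With MI-503 in WT cells, 9 of the 10 fell and Edem2 rose, where 33.7% of all genes were called lower and 35.2% higher. The members' median was -1.36, against 0.031 over all genes. In the cells labelled dKO, 8 fell and 2, Edem1 and Edem2, rose, where 26.5% of all genes were called lower and 29.1% higher, with a median of -0.62 against 0.031. That comparison does not use the means of the WT DMSO libraries, and with only the dKO groups in the fit the same numbers were called, 8 lower and 2 higher. In that fit 4582 of 15819 genes tested were called lower and 4441 higher.

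Between the genotypes in MI-503, 6 members were lower, 1 was higher and 3 did not pass, where 28.5% of all genes were called lower and 26.6% higher. The median was -0.18, against 0.0071 over all genes. The interaction is the response to MI-503 in cells labelled dKO minus that in WT. It was above 0 for 8 members and did not pass for Edem2 and Os9, where 24.8% of all genes were called above 0 and 22.0% below. With library size only, 37.2% of the interaction calls over all genes were above 0, against 52.9% with TMM, the median moved by -0.159, and the same number of members, 8, was called.

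**Figure D2:**
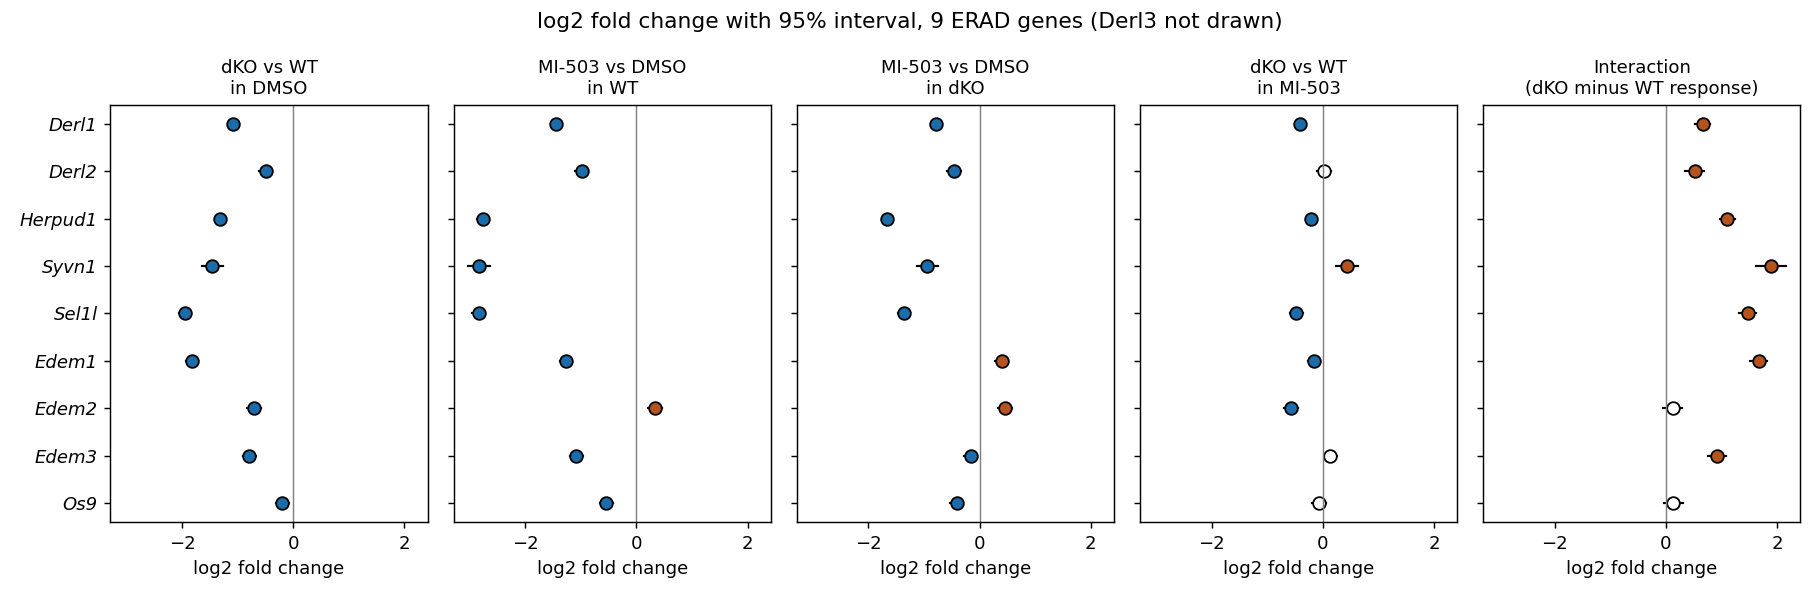
Log2 fold changes (x axis) of 9 ERAD genes in 5 comparisons, with 95% intervals of the edgeR fit. Blue is called lower, orange higher and white not passed; Derl3 is not drawn because its changes from WT DMSO, -8.30 and -8.54, lie beyond the axis, and the Edem1 and Edem2 points cross to the right of 0 with MI-503 in dKO.

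The 250 bases before the start sites of the members were searched for 3 elements known from the unfolded protein response, on both strands. These were the ER stress element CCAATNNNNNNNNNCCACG, the ER stress element II ATTGGNCCACG and the core of the UPR element, TGACGTGG. RefSeq promoter windows of GRCm38.p6 were matched for 9 of the 10 members, with 10 windows in all, Derl2 having 2. Derl3 and Syvn1 each held the first element, which 0.113% of all 32851 windows hold, Herpud1 held the second (0.0304% of all windows), and none of the 9 held the third (0.563%). No match overlapped another. With 1 mismatch allowed in the fixed letters, 4, 4 and 3 of the 9 members had a match to the 3 elements, against 1.32%, 1.03% and 13.4% of all windows. Members were counted as genes and the rest as windows, and the difference was not tested. A match is a description of letters, not a measured binding site. Many ERAD genes were already known as targets of this response through such elements. Matches in the members were therefore likely before the search, whatever these libraries held, and are not separate evidence.

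The windows of the 3 genes with an exact match are shown with those of Sel1l, which had none exactly and matched both ER stress elements with 1 mismatch, 5′ to 3′ on the strand of the gene and ending at the base before the start site. Capitals mark the fixed letters of the match. In Derl3 it lies on the opposite strand, 156 to 138 bases before the start, in Syvn1 44 to 26 and in Herpud1 52 to 42 bases before it. The windows are chr10:75893148-75893397 (+ strand, Derl3), chr19:6046326-6046575 (+, Syvn1), chr8:94386179-94386428 (+, Herpud1) and chr12:91849158-91849407 (- strand, Sel1l).
Derl3: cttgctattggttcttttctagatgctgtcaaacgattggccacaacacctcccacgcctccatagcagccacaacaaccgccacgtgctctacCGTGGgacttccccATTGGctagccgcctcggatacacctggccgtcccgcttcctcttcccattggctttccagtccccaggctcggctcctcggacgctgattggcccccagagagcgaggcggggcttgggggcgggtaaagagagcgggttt
Syvn1: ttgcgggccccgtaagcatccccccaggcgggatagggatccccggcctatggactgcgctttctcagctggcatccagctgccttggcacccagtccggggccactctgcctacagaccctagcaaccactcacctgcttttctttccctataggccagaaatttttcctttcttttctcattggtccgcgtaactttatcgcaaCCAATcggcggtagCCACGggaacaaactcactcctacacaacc
Herpud1: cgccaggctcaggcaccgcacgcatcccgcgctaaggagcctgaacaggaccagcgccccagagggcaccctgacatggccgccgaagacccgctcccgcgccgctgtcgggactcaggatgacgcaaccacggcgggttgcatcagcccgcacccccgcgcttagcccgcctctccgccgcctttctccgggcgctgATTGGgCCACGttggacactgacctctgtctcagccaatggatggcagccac
Sel1l: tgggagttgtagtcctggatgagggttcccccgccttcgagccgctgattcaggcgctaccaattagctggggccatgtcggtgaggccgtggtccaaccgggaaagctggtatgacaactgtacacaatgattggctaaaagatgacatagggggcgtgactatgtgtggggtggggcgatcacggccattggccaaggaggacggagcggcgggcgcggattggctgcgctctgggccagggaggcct

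Syvn1 and Sel1l form the core of the HRD1 ligase complex. Syvn1 (ENSMUSG00000024807, GRCm38.p6, chr19:6046576-6053718), which encodes the ligase, had 128 and 114 CPM in WT with DMSO, 17.5 and 16.6 in WT with MI-503, 41.4 and 47.1 in dKO with DMSO, and 25.0 and 21.1 in dKO with MI-503. None of the 4 groups overlapped, and WT cells in MI-503 had the least. Under DMSO it was lower in cells labelled dKO (a log2 change of -1.45, SE 0.085, adjusted p = 3.31e-09). MI-503 lowered it by more in WT (-2.83, SE 0.091, adjusted p = 6.91e-12) than in labelled dKO cells (-0.94, SE 0.088, adjusted p = 7.07e-07), with an interaction of 1.89 (SE 0.12, adjusted p = 6.27e-08). Syvn1 was the 1 member called higher in dKO than in WT cells when both had MI-503 (0.44, 95% interval 0.24 to 0.64, adjusted p = 0.00106).

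Sel1l (ENSMUSG00000020964, chr12:91806043-91849157) encodes the partner that holds HRD1 and hands it substrates. It had 914 and 968 CPM in WT with DMSO, 128 and 135 in WT with MI-503, 251 and 238 in dKO with DMSO, and 95.01 and 94.85 in dKO with MI-503. The groups did not overlap, and the mean ran over a 9.91-fold range. Under DMSO, Sel1l was lower in labelled dKO cells (log2 fold change -1.95, SE 0.051, adjusted p = 1.08e-12) and MI-503 lowered it in WT (-2.84, SE 0.053, adjusted p = 5.2e-14) and dKO cells (-1.36, SE 0.051, adjusted p = 1.08e-10). Unlike Syvn1, it was lower in dKO than in WT cells in MI-503 (-0.47, adjusted p = 2.71e-06).

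Herpud1 (ENSMUSG00000031770, chr8:94386429-94395371) encodes a ubiquitin-like membrane protein that joins the HRD1 complex under ER stress. It measured 334.1 and 334.3 CPM in WT with DMSO, 49.4 and 49.0 in WT with MI-503, 135 and 134 in dKO with DMSO, and 42.95 and 42.1 in dKO with MI-503. The libraries of each group lay close together and no groups overlapped. Herpud1 had the largest fall of the 10 with MI-503 in labelled dKO cells (log2 fold change -1.66, SE 0.045, adjusted p = 6.56e-12). In WT it fell by 2.76 on the log2 scale (SE 0.046, adjusted p = 1.79e-14), and in DMSO it fell in labelled dKO cells (-1.31, SE 0.043, adjusted p = 9.81e-12). In MI-503 the genotypes differed by only -0.21 (95% interval -0.31 to -0.11, adjusted p = 0.00125). Herpud1 made up at least 12.8% of the members' counts in each DMSO library (14.5% in both dKO ones), against 7.08% to 7.29% in the 4 MI-503 libraries.

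The derlins are membrane proteins that help misfolded proteins leave the ER. Derl3 (ENSMUSG00000009092, chr10:75893398-75895941), the form known from secretory cells, had 212 and 218 CPM in WT with DMSO, from 13051 and 13162 counts. In the other 6 libraries it had 0.600 and 0.552 (WT MI-503), 0.819 and 0.547 (dKO DMSO), and 0.252 and 0.276 CPM (dKO MI-503), from 17 to 54 counts a library. Its level was thus high in 1 group alone, and the WT MI-503 and dKO DMSO libraries overlapped. Under DMSO the log2 fold change from WT to dKO was -8.30 (SE 0.10, adjusted p = 4.12e-15), the 14th most negative of the 16921 genes. With MI-503 in WT it was -8.54 (SE 0.11, adjusted p = 2.91e-15), the 4th most negative. Even from this low level, MI-503 lowered it in labelled dKO cells (-1.36, 95% interval -1.88 to -0.83, adjusted p = 0.000283). In MI-503 it was lower in dKO than in WT cells (-1.12, 95% interval -1.67 to -0.58, adjusted p = 0.0019). The interaction was 7.18 (SE 0.40, adjusted p = 1.45e-08), and the level in dKO cells in DMSO was already under 1 CPM.

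Derl1 (ENSMUSG00000022365, chr15:57869502-57892418) had 338 and 337 CPM in WT with DMSO, 126 and 122 in WT with MI-503, 160.3 in both dKO DMSO libraries, and 93.6 and 92.4 in dKO with MI-503. The groups did not overlap, in the order WT DMSO, dKO DMSO, WT MI-503, dKO MI-503. It fell in all 4 comparisons of groups: by 1.08 and 0.41 on the log2 scale between genotypes under DMSO (adjusted p = 6.35e-11) and under MI-503 (adjusted p = 1.98e-06), and with MI-503 by 1.45 in WT (adjusted p = 3.49e-12) and 0.79 in dKO cells (adjusted p = 3.64e-09). Derl2 (ENSMUSG00000018442, chr11:71007440-71019841) changed less, from 91.9 and 88.0 CPM in WT with DMSO to 44.8 and 46.3 in WT with MI-503, and from 65.0 and 62.6 in dKO with DMSO to 47.9 and 44.7 in dKO with MI-503. In MI-503 its genotypes overlapped (log2 difference 0.025, 95% interval -0.096 to 0.15, adjusted p = 0.735). Its falls were -0.50 between genotypes in DMSO (adjusted p = 2.4e-06), -0.98 with MI-503 in WT (adjusted p = 1.69e-09) and -0.46 in dKO cells (adjusted p = 8.27e-06).

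Counted within the family, Derl3 held 33.1% and 33.9% of the derlin counts in the WT DMSO libraries and 0.178% to 0.362% in the other 6. Derl1 held 52.4% to 52.6% in WT DMSO and 66.0% to 73.4% elsewhere. These shares compare libraries, not the genes with each other, since transcript lengths were not used.

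**Figure D3:**
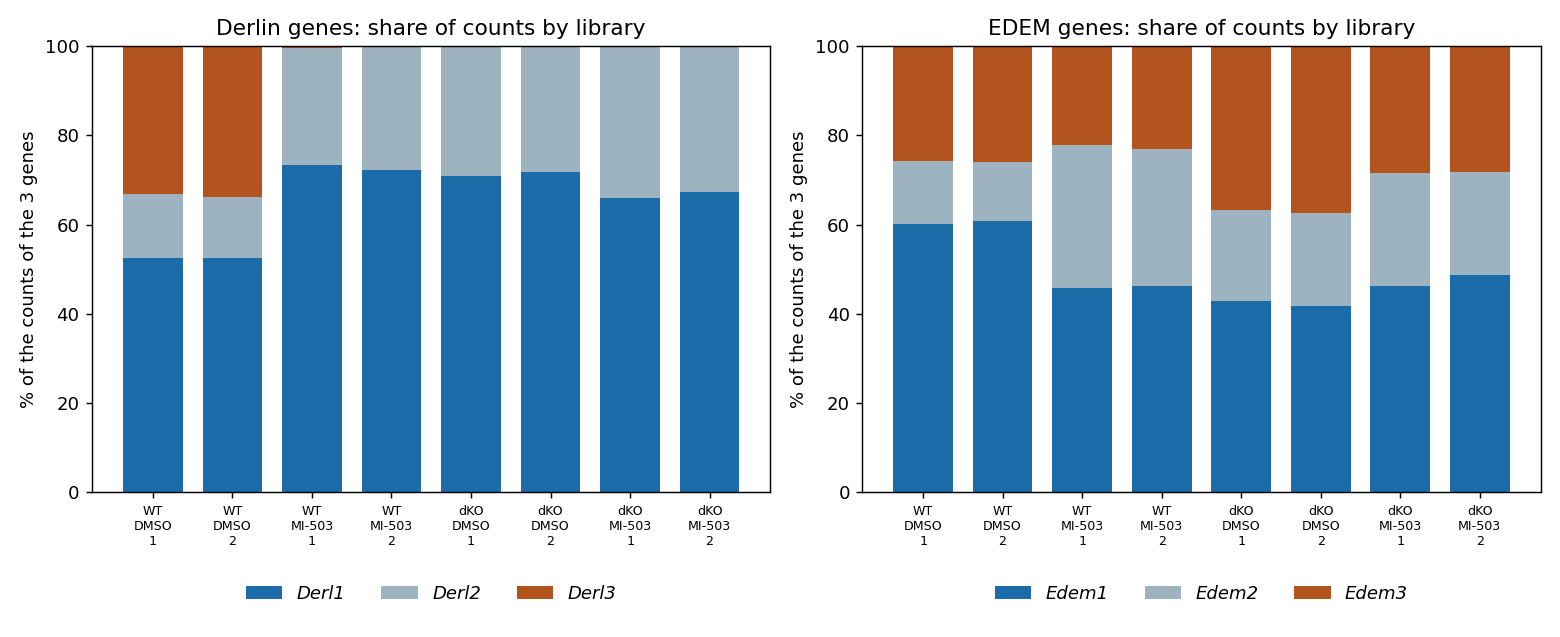
Share of the summed raw counts (y axis, %) of the 3 derlin genes (left) and the 3 EDEM genes (right) in each of the 8 libraries (x axis). Derl3 is visible in the 2 WT DMSO bars alone, and the Edem2 share is largest in the 2 WT MI-503 bars (32.1% and 30.8%).

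The EDEM proteins trim mannose from misfolded glycoproteins and so mark them for removal. They did not move together. Edem1 (ENSMUSG00000030104, chr6:108824045-108859356) had 256 and 270 CPM in WT with DMSO, 107 and 111 in WT with MI-503, 76.3 and 72.4 in dKO with DMSO, and 95.5 and 100.2 in dKO with MI-503. It thus had its lowest level in dKO DMSO, unlike the ligase and derlin genes, and no groups overlapped. Under DMSO, Edem1 fell from WT to dKO cells (a log2 change of -1.82, SE 0.052, adjusted p = 2.5e-12). MI-503 lowered it in WT (-1.27, SE 0.051, adjusted p = 4.73e-11) but raised it in dKO cells (0.40, SE 0.051, adjusted p = 1.52e-05), and the responses differed (interaction 1.67, SE 0.072, adjusted p = 1.75e-09). In MI-503 it was lower in dKO than in WT cells (-0.15, adjusted p = 0.0194). That call ended with library size only (-0.084), without WT MI-503 replicate 2 (-0.12) and without dKO MI-503 replicate 1 (-0.12).

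Edem2 (ENSMUSG00000038312, chr2:155701673-155729475), which takes the first mannose, had 60.1 and 57.4 CPM in WT with DMSO, 74.6 and 73.9 in WT with MI-503, 36.36 and 36.01 in dKO with DMSO, and 51.9 and 47.6 in dKO with MI-503. It was the 1 member that rose with MI-503 in both genotypes, by a log2 fold change of 0.34 in WT (95% interval 0.21 to 0.46, adjusted p = 0.000113) and 0.46 in dKO cells (0.33 to 0.59, adjusted p = 1.29e-05). The difference between these responses was 0.12 (95% interval -0.053 to 0.30, adjusted p = 0.245). Edem2 was lower in dKO than in WT cells under DMSO (-0.70, adjusted p = 1.27e-07), and also under MI-503 (-0.58, adjusted p = 1.25e-06).

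Edem3 (ENSMUSG00000043019, chr1:151755344-151822328) had 109 and 116 CPM in WT with DMSO, 51.4 and 55.2 in WT with MI-503, 65.4 and 64.9 in dKO with DMSO, and 58.7 and 58.2 in dKO with MI-503. Under DMSO it fell from WT to dKO cells (a log2 change of -0.79, adjusted p = 1.65e-08), and MI-503 lowered it in WT (-1.08, adjusted p = 4.98e-10). Its fall with MI-503 in dKO cells was small (-0.16, adjusted p = 0.0257), and the call ended when any 1 of the 4 dKO libraries was left out (-0.17 to -0.15, adjusted p from 0.0568 to 0.0992). Between genotypes in MI-503 it did not pass (0.13, 95% interval 0.016 to 0.25, adjusted p = 0.053), but it did without WT MI-503 replicate 2 (0.19, adjusted p = 0.0437) and with 4 other settings.

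Os9 (ENSMUSG00000040462, chr10:127094259-127121160) encodes a lectin that brings trimmed glycoproteins to SEL1L. It had 125 and 116 CPM in WT with DMSO, 83.2 and 81.9 in WT with MI-503, 103 and 107 in dKO with DMSO, and 82.1 and 75.4 in dKO with MI-503. These values spanned the smallest range of group means among the members, 1.53-fold. MI-503 lowered Os9 in WT (a log2 change of -0.54, adjusted p = 8.32e-07) and in dKO cells (-0.41, adjusted p = 2.26e-05), and the difference of the responses did not pass (0.13, 95% interval -0.040 to 0.30, adjusted p = 0.205). Its fall between genotypes in DMSO (-0.20, adjusted p = 0.00608) ended without WT DMSO replicate 1 (-0.14, adjusted p = 0.0807), with either other filter on low counts (-0.10 and -0.11) and with only the groups compared (-0.12). In MI-503 the genotypes overlapped (-0.069, 95% interval -0.19 to 0.051, adjusted p = 0.321).

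Of 46 other ERAD genes listed by role, all 46 were tested. In DMSO, 25 were lower and 14 higher in cells labelled dKO, where 35.8% of all genes tested were called lower and 29.6% higher. Their median of -0.23 was about the size of the 0.227 by which scaling by library size only raised the median of all genes. With MI-503 in WT, 30 fell and 10 rose (median -0.46), beside 33.7% and 35.2% of all genes. In dKO cells 24 fell and 7 rose (median -0.18), beside 26.5% and 29.1%. Between the genotypes in MI-503, 18 were lower and 14 higher (median -0.054), beside 28.5% and 26.6%. In the interaction 21 were above 0 and 11 below (median 0.16), beside 24.8% and 22.0%.

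The plot by role splits these genes. In WT, MI-503 lowered 6 of 7 recognition genes and raised 0. It lowered 8 of 14 other ligases and partners and raised 3, and lowered 4 of 4 ubiquitin-conjugating enzymes. Of 9 p97 extraction genes it lowered 6 and raised 3, and of 12 genes of later cytosolic steps it lowered 6 and raised 4. Of all genes tested, 33.7% were called lower and 35.2% higher in this comparison. Each role group thus held more genes lowered than raised here, with medians from -1.13 for recognition to -0.24 for the cytosolic steps. This did not hold for every comparison. Between genotypes in DMSO, 4 recognition genes were lower and 0 higher, and 7 and 5 of the ligase group. The same counts were 3 and 1 for the E2 enzymes, 6 and 2 for extraction, and 5 and 6 for the cytosolic steps. Of all genes, 35.8% were lower and 29.6% higher there. The role groups were not tested against each other.

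**Figure D4:**
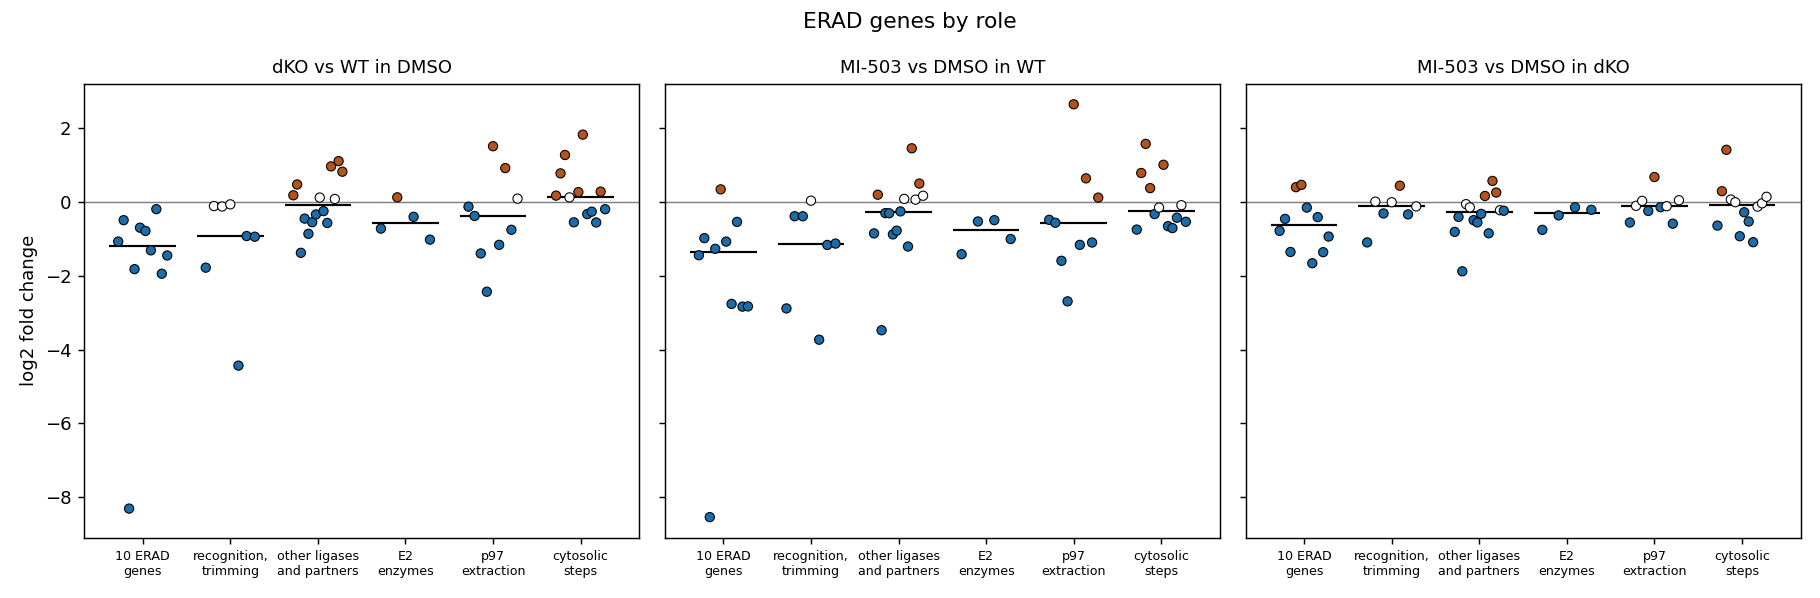
Log2 fold changes (y axis) of the 10 ERAD genes and of 46 other ERAD genes by role (x axis) in 3 comparisons. Points are genes, blue called lower, orange higher and white not passed, and lines are medians; the median of the cytosolic genes in DMSO lies above 0 (0.14) and that of the 10 ERAD genes at -1.19.

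Among recognition genes, Sdf2l1, an ER co-factor of the chaperone BiP, had 293 and 290 CPM in WT with DMSO and at most 22.8 CPM in the other 6 libraries. Under DMSO it fell from WT to dKO cells (a log2 change of -4.43, adjusted p = 5.3e-15). MI-503 lowered it in WT (-3.73, adjusted p = 1.57e-14) but raised it in dKO cells (0.44, adjusted p = 3.49e-05). Dnajb9, which encodes the co-chaperone ERdj4, had log2 fold changes of -1.78, -2.89 and -1.10 in the same comparisons, all called lower (adjusted p = 6.02e-11, 1.03e-12 and 2.96e-08). Thus these partners of BiP both fell from WT DMSO, but went opposite ways with MI-503 in dKO cells.

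Erlin1, which encodes a membrane scaffold that brings substrates to ligases, fell from 358 and 374 CPM in WT with DMSO to 32.4 and 33.4 in WT with MI-503 (log2 fold change -3.48, adjusted p = 1.6e-14). In dKO cells it went from 146 and 135 to 38.1 and 38.3 CPM (-1.88, adjusted p = 7.71e-12). Rnf5, an ER membrane ligase gene, rose with MI-503 in WT (1.45, adjusted p = 1.12e-10) and dKO cells (0.57, adjusted p = 2.19e-06), so Erlin1 and Rnf5 went opposite ways. The E2 gene Ube2g2 fell with MI-503 by 1.42 in WT (adjusted p = 4.26e-10) and 0.76 in dKO cells (adjusted p = 6.59e-07), and Ube2k by 1.01 (adjusted p = 9.05e-10) and 0.22 (adjusted p = 0.00376).

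Selenos, a selenoprotein that ties p97 to the derlins, had 154 and 165 CPM in WT with DMSO and between 23.4 and 29.8 in the other 6 libraries. It fell with MI-503 by 2.69 in WT (adjusted p = 4.84e-13) and by only 0.25 in dKO cells (adjusted p = 0.00459). Selenok, a related selenoprotein gene, fell by 1.60 in WT (adjusted p = 1.73e-11) and had a log2 difference of 0.026 in dKO cells (adjusted p = 0.73). Vcp, the gene of p97 itself, was named after its values were seen: it rose slightly with MI-503 in WT (0.11, adjusted p = 0.0372), and did not pass for genotype in DMSO (0.087, adjusted p = 0.107) or with MI-503 in dKO cells (0.045, adjusted p = 0.434). Bag6, a holdase gene for extracted proteins, rose with MI-503 in WT and in dKO cells (0.78, adjusted p = 4.24e-06, and 0.29, adjusted p = 0.0166). Between the genotypes in DMSO, Bag6 was higher in cells labelled dKO (0.77, adjusted p = 6e-06), as was Rnf5 (0.96, adjusted p = 1.16e-08), whereas Erlin1 (-1.38), Ube2g2 (-0.72), Ube2k (-1.02), Selenos (-2.43) and Selenok (-1.40) were lower, with adjusted p of at most 4.8e-07. Between the genotypes in MI-503, the called differences were Sdf2l1 (-0.26), Ube2k (-0.23), Erlin1 (0.22), Selenok (0.22) and Bag6 (0.28), and Dnajb9, Rnf5, Ube2g2 and Selenos did not pass. The interaction was above 0 for Sdf2l1 (4.17), Dnajb9 (1.79), Erlin1 (1.60), Ube2g2 (0.66), Ube2k (0.79), Selenos (2.45) and Selenok (1.62), and below 0 for Rnf5 (-0.88) and Bag6 (-0.49), with adjusted p of at most 0.00692.

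The genes of known regulators of ERAD genes are given beside the members. Xbp1 had 208 and 212 CPM in WT with DMSO, 56.7 and 57.5 in WT with MI-503, 104 and 98.5 in dKO with DMSO, and 61.1 and 63.7 in dKO with MI-503. Its group means had the order of Syvn1, Derl2 and Edem3. Atf6 had 486 and 495, 115 and 117, 204 and 194, and 70.6 and 72.9 CPM, the order of Sel1l, Herpud1, Derl1, Derl3 and Os9. These orders differ only in which genotype had the higher mean in MI-503. That difference did not pass for Derl2, Edem3 and Os9, so their order is not settled. For Derl3, the dKO DMSO and WT MI-503 libraries overlapped. Edem1 and Edem2 had neither order. How many of all genes had either order was not counted. Gene counts show neither the splicing of Xbp1 nor the cleavage of ATF6, the steps that activate them. Ern1, which encodes the sensor IRE1, fell with MI-503 by 1.16 in WT (adjusted p = 2.25e-10) and 1.75 in dKO cells (adjusted p = 2.32e-11), a larger fall in dKO cells (interaction -0.59, adjusted p = 2.88e-05). The ATF6 paralog Atf6b rose in WT (0.74, adjusted p = 6.84e-05) and did not pass in dKO cells (0.015, adjusted p = 0.926). Of the genes of the PERK arm, Ddit3 fell by 4.70 in WT (adjusted p = 1.73e-14) and 2.67 in dKO cells (adjusted p = 6.49e-12), and Atf4 by 0.98 (adjusted p = 1.2e-10) and 1.13 (adjusted p = 1.36e-10). Between the genotypes in DMSO, Xbp1 (-1.05), Atf6 (-1.30), Ern1 (-0.15) and Ddit3 (-2.09) were lower in cells labelled dKO. Atf6b was higher (1.26), and Atf4 did not pass (-0.055, adjusted p = 0.268).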

How the data were processed

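RNA of 8 libraries was analysed from 1 deposited table of raw read counts per gene, the unit in which the authors deposited it. The submitters' processing notes list, without roles, the builds GRCm38 and mm10 and the tools SICER, deepTools, MACS3, Bowtie2 and STAR. For the counting program, annotation and strand setting, nothing is given in the sources used here. Counts of overlapping, antisense or near-identical genes are therefore uncertain. Identifiers were matched to symbols for 53274 of 53465 genes, and 1 row without an identifier was left out. Genes with low counts (edgeR's filterByExpr, minimum count 10, total 15) were left out, which kept 16921. Totals of 58113705 to 68571176 counts were scaled by TMM.

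One edgeR 4.0.16 quasi-likelihood model (R 4.3.3) held the 4 group means of 2 libraries, with 4 residual degrees of freedom. Group differences and their interaction were tested two-sided, with Benjamini-Hochberg adjustment over all genes tested and a threshold of 0.05. With 2 libraries a group, the smallest exact permutation p is 0.33. The procedure was tested on simulated data in which few genes changed, in the comparison of treatments in WT alone. Most genes were called in that comparison here, so the test does not cover scaling under such wide change. Alternatives were library size only, RLE size factors, no filter, a stricter filter (1 CPM in 2 libraries), a replicate block, only the groups compared, each library left out, and DESeq2 1.42.0.

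Members, lists and motifs were chosen with earlier results of these data known. All 10 members are named. Of each role group of the wider list, the 2 genes with the largest absolute change among those called with MI-503 in WT and averaging at least 5 CPM are named, except 1 that is not reported here. Promoter windows came from RefSeq, GRCm38.p6.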

Additional observations from a re-analysis of the deposited data

Results flagged for a closer look

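The response to MI-503 differed between the genotypes for 8 of the 10 ERAD genes in the test of the difference itself, the interaction in edgeR's quasi-likelihood fit. Of all genes tested, 24.8% were called above 0 and 22.0% below in the same test. The difference is the log2 response in cells labelled dKO minus that in WT. It was 7.18 for Derl3, 1.89 for Syvn1, 1.67 for Edem1, 1.47 for Sel1l, 1.10 for Herpud1, 0.92 for Edem3, 0.66 for Derl1 and 0.52 for Derl2. For Edem1 the responses had opposite signs, -1.27 in WT and 0.40 in dKO cells. All 8 differences use the WT DMSO libraries, in which these 8 genes were highest.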

How the results depend on the processing

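Of 740 member fold changes under the alternatives, 723 kept their side of the threshold, and 11 lost and 5 gained the call in the same direction. The other 1 reversed and lost the call: Os9 between genotypes in DMSO, at 0.031 with library size only. A change of sign where neither fit passed was counted among the 723. Of 148 counts of members called, 143 stayed within 1.5 times. The other 5 were all of members higher in dKO than WT in MI-503, 2 in place of 1 with RLE size factors, library size only, the stricter filter and only the groups compared, and 1 to 2 when leaving out a library (2 without WT MI-503 replicate 2). Same-numbered libraries' deviations correlated between -0.0886 and 0.0585 over pairs of groups, so the numbers were not taken as pairs. With the replicate block 10798 genes in place of 11070 were called between genotypes in DMSO, and the counts of members called were 10 lower there, 9 lower and 1 higher with MI-503 in WT, 8 and 2 in dKO cells, 6 and 1 between genotypes in MI-503, and 8 above 0 in the interaction. Of all 16921 genes, 5893 were lower and 4905 higher in the 1st of these. The same counts were 5608 and 5851 with MI-503 in WT, and 4344 and 4771 in dKO cells. They were 4666 and 4305 between genotypes in MI-503. In the interaction 3568 were below 0 and 4004 above. With 17 to 54 counts a library outside WT DMSO, Derl3 differences among the other groups are the least precise.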
